A study of Mus musculus with 66 samples.

Results

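Brain hemi-sections of *Rorb* h4/h4 mice were compared directly with those of *Rorb* h3/h3 mice by RNASeq, without the wild-type libraries. All libraries that the labels place in these groups were used, 4 of h4/h4 and 4 of h3/h3, which makes 8 of the 66 libraries of the series. Both alleles arose spontaneously, both mice are homozygous, and both lines were found for the same high-stepping gait. The h4 allele arose in the line B6.129S7-*Il1r1* tm1/mx/J and turns a cysteine codon of *Rorb* into a stop codon. The h3 allele arose in the albino line B6(Cg)-*Tyr* c-2J/J and its causal mutation was not identified, so the allele, the *Il1r1* or *Tyr* background and the line cannot be told apart here. In the paper's crosses h3 complemented h1 and h2, and complemented h4 weakly or not at all. That h3 is an allele of *Rorb* is what the paper proposes from these crosses and the gait. Whether the sequenced h4 mice still carried the *Il1r1* allele is not given in the sources used here. The official strain name in the paper does not list that allele for h4, whereas the name of h3 lists the *Tyr* allele. The h4 group held 2 females and 2 males aged 8.4 to 8.6 weeks, and the h3 group 1 female and 3 males aged 8.0 to 9.6 weeks. Levels in C57BL/6J, h1 and h2 mice are given beside them below. The h2 allele arose in the same albino line as h3, and h1 arose in C57BL/6J. The C57BL/6J and h1 mice were aged 8.0 weeks and the h2 mice 7.9 to 9.4 weeks, with females and males in each group. The comparison asks what differs between the allele with the lowest *Rorb* transcript level of the 4 on the C57BL/6J background and an allele whose *Rorb* level lies at that of C57BL/6J mice.

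*Rorb* encodes RORβ, a nuclear receptor that binds DNA as a monomer at the hexamer AGGTCA behind an A and T rich stretch. It is made in excitatory neurons of cortical layer 4, in sensory relay nuclei of the thalamus, in retina, and in inhibitory interneurons of the spinal dorsal horn whose loss gives the high-stepping gait. Alternative first exons give a brain and a retinal isoform, and the gene-level values used here sum both. *Rora*, of the same receptor family, and the repressors *Nr1d1* and *Nr1d2* bind the same element and are parts of the circadian clock.

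Total counts were 33907239 to 45350626 in the h4 libraries and 39673654 to 51979801 in the h3 libraries. The identifier ENSMUSG00000098178, which has no symbol, took 2.39% to 12.48% of the counts of an h4 library and 3.42% to 9.03% of an h3 library. *Xist* and *Ddx3y* matched the labelled sex in 8 of 8 libraries. None of the first 3 principal components separated the genotypes, and the first, with 29.3% of the variance, separated females from males. Markers of neurons, astrocytes, oligodendrocytes and microglia were all present, and summed neuron markers were at 6491 to 6928 CPM (counts of a gene per 1000000 counts of the library, after TMM scaling) in h3 and 6390 to 6851 CPM in h4. Summed brainstem markers varied widely within both groups, at 27.5 to 121 CPM in h3 and 29.0 to 102 CPM in h4 libraries. In a bulk sample, fewer cells of a type and less RNA per cell cannot be told apart.

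*Rorb* was the gene with the smallest p. It stood at 54.9, 50.6, 51.6 and 54.7 CPM in the h3 libraries and at 12.1, 14.8, 10.4 and 13.4 CPM in the h4 libraries. The groups lay far apart, and the h4 mean was 23.9% of the h3 mean. The log2 fold change of h4 over h3 was -2.05 (SE 0.09, edgeR adjusted p = 1.4e-07). The exact permutation test of the means, two-sided, gave p = 0.0286, the smallest that 4 against 4 allows. The alleles were chosen by their *Rorb* levels, so a gap was fixed in advance and neither p is evidence for it. In C57BL/6J brain *Rorb* was at 50.9 to 61.1 CPM (n = 3), a range that overlapped h3, while *Rorb* h1/h1 (34.7 to 37.2 CPM, n = 3) and *Rorb* h2/h2 (27.3 to 30.7 CPM, n = 4) lay between h3 and h4. The transcript was thus still present in h4, and these values do not say whether protein was made from it. The related genes *Rora*, *Nr1d1* and *Nr1d2* did not pass the test and had log2 fold changes of -0.04, -0.03 and 0.04, each with an SE of at least 0.05.

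Across the transcriptome 23 of 17527 tested genes (0.131%) passed an adjusted p of 0.05, 12 of them higher (0.0685%) and 11 lower (0.0628%) in h4. Their absolute log2 fold changes had a median of 0.57, and 6 genes changed by more than 2-fold: *Rorb*, *Egfl6*, *Myoc*, *Pisd-ps1*, *Pisd-ps2* and *Thbs4*. In 23 of the 23 genes the h4 and h3 libraries did not overlap in CPM, which was also true of 4.27% of all tested genes. An unadjusted p under 0.05 was found for 7.0% of all tested genes, and these shares are the background of every count over a gene list given below. No sample source states separate litters or batches beyond the mouse, so the p-values measure the spread among these 8 mice. DESeq2 called 83 of 19661 genes (0.422%), among them the 23, and leaving out h3 replicate 3 gave 15 calls, 6 of them higher.

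**Figure D1:**
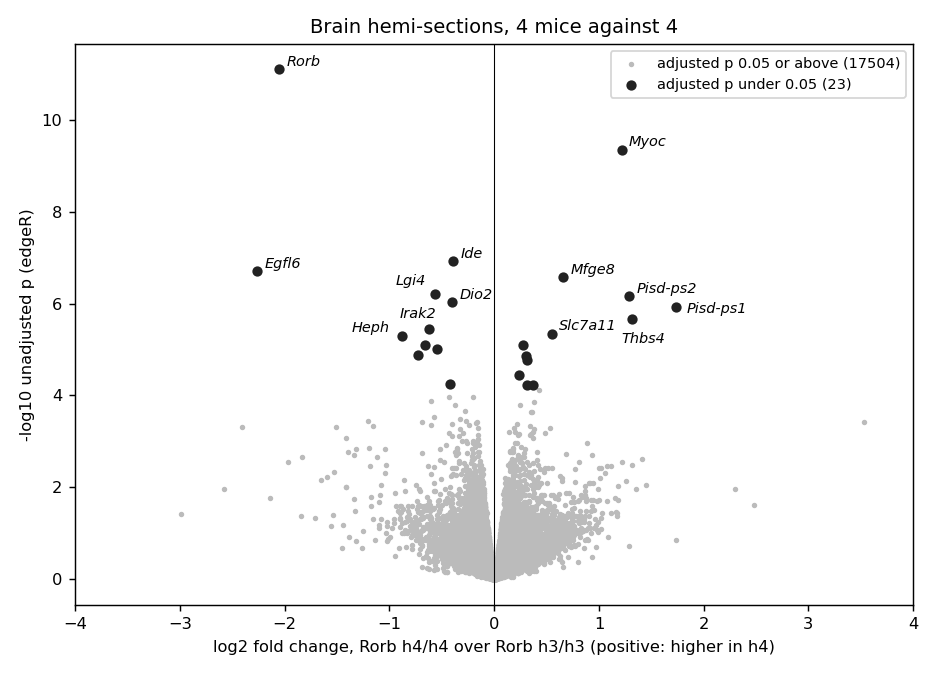
Log2 fold change of h4 over h3 (x axis) against the -log10 of the unadjusted edgeR p (y axis) for each of the 17527 tested genes. The 23 black points passed an adjusted p of 0.05, and *Rorb*, at -2.05, is the highest point.

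The genes called are described below by the kind of protein they encode, a grouping made after the calls were known and not tested. Levels are CPM, listed for replicates 1 to 4, and compared only within a gene.

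Several encode secreted proteins. *Myoc* (myocilin, a secreted glycoprotein mutated in inherited glaucoma and made in brain by astrocytes at the pial surface) was at 14.9, 15.6, 12.3 and 13.9 CPM in h3 and at 31.4, 34.0, 32.4 and 33.4 CPM in h4. It rose 2.32-fold (log2 1.22, SE 0.07, edgeR adjusted p = 4e-06). The h4 libraries lay within a narrow band, well above the h3, C57BL/6J, h1 and h2 libraries, and the group means ran in the order h3 14.2, C57BL/6J 17.0, h1 19.9, h2 23.1 and h4 32.8 CPM. The h3 libraries also lay below the range of the C57BL/6J, h1 and h2 libraries, so both mutants of this comparison stood outside it, on opposite sides.

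*Egfl6*, a secreted protein with EGF repeats that binds integrins, was at 2.31, 3.21, 2.74 and 3.58 CPM in h3 and at 0.696, 0.446, 0.797 and 0.548 CPM in h4. It fell by 2.26 on the log2 scale (SE 0.22, edgeR adjusted p = 0.00087), the largest change among the 23 called genes, at a low level of expression. C57BL/6J (2.61 to 3.27 CPM), h1 (2.69 to 2.95 CPM) and h2 (1.74 to 2.72 CPM) lay with h3, and h4 alone stood apart. *Egfl6* is X-linked, and with sex as a covariate its edgeR adjusted p was 0.0021.

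*Mfge8*, a secreted bridge between phosphatidylserine on dying cells or debris and integrins of phagocytes, was at 79.8, 65.5, 70.8 and 66.9 CPM in h3 and at 104, 119, 104 and 119 CPM in h4. It rose 1.58-fold (log2 0.66, SE 0.07, edgeR adjusted p = 0.00095), and the h4 libraries exceeded all others on the C57BL/6J background. *Thbs4*, a matrix glycoprotein of the thrombospondin family, was at 4.80, 4.63, 4.24 and 3.86 CPM in h3 and at 6.96, 12.1, 11.7 and 12.7 CPM in h4 (log2 1.32, SE 0.16, edgeR adjusted p = 0.0039). Replicate 1 of h4 sat nearer to h3 than the other h4 libraries did, and within the range of the h2 libraries (4.56 to 7.84 CPM).

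Other secreted products fell in h4. *Lgi4*, a ligand of ADAM22 that peripheral glia need for myelination, was at 32.7 to 36.2 CPM in h3 and 21.8 to 25.1 CPM in h4 (log2 -0.57, SE 0.06, edgeR adjusted p = 0.0018). *Chi3l1*, a chitinase-like protein of reactive astrocytes, was at 7.18 to 8.40 CPM in h3 and 4.33 to 5.11 CPM in h4 (log2 -0.66, SE 0.09, edgeR adjusted p = 0.0095). *Apln*, the precursor of the apelin peptides that act on the APJ receptor, was at 20.6 to 28.3 CPM in h3 and 12.7 to 17.1 CPM in h4 (log2 -0.73, SE 0.11, edgeR adjusted p = 0.014). *Gpld1*, a phospholipase that releases GPI-anchored proteins, was at 41.7 to 52.3 CPM in h3 and 33.0 to 37.5 CPM in h4 (log2 -0.42, SE 0.07, edgeR adjusted p = 0.045). For all 4 of these genes h4 also lay below every C57BL/6J, h1 and h2 library.

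**Figure D2:**
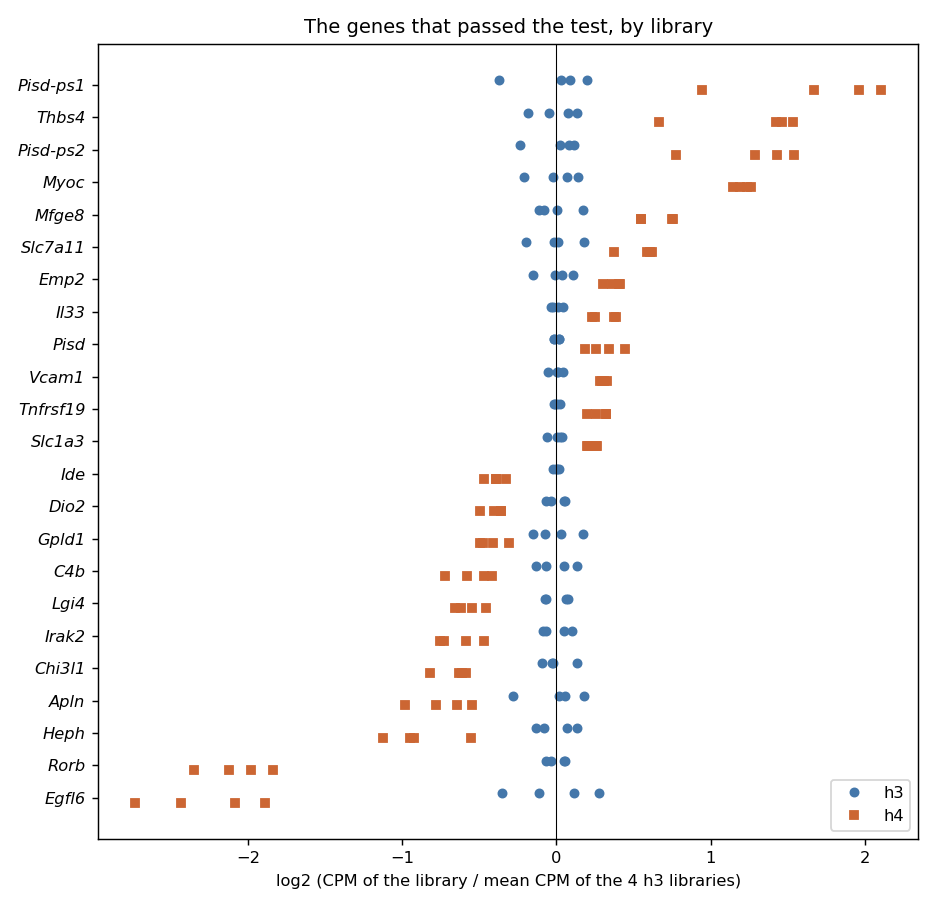
Each library of the 23 called genes as log2 of its CPM over the mean CPM of the 4 h3 libraries (x axis), circles for h3 and squares for h4, with genes ordered by fold change. The groups overlap in none of the 23 genes, and h4 spreads most in *Pisd-ps1*, *Pisd-ps2* and *Thbs4*, where its lowest library is replicate 1.

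Genes of immune signalling moved in both directions. *Irak2*, a kinase that passes on the signal of interleukin 1 and Toll-like receptors, was at 13.9, 15.1, 13.7 and 15.7 CPM in h3 and at 9.72, 8.66, 8.80 and 10.5 CPM in h4. It fell by 0.63 on the log2 scale (SE 0.08, edgeR adjusted p = 0.0056), with C57BL/6J at 14.6 to 15.9 CPM. *C4b*, the complement component, was at 32.5, 34.0, 39.0 and 36.8 CPM in h3 and at 25.7, 21.5, 26.6 and 23.8 CPM in h4 (log2 -0.54, SE 0.08, edgeR adjusted p = 0.011). Here h3 was the group that stood apart: C57BL/6J, h1 and h2 lay at 22.1 to 27.5 CPM, the range of h4. *C4b* has the near copy *C4a*, which was at 0.853 to 1.12 CPM in h3 and 0.957 to 1.64 CPM in h4 and did not pass the test (edgeR adjusted p = 0.83), and reads that fit both were divided by RSEM.

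*Vcam1*, an adhesion molecule of endothelium and astrocytes that cytokines induce, was at 28.2 to 30.1 CPM in h3 and 35.6 to 36.8 CPM in h4 (log2 0.31, SE 0.04, edgeR adjusted p = 0.014). *Il33*, an alarmin of the interleukin 1 family kept in nuclei of astrocytes and oligodendrocytes, was at 43.3 to 45.7 CPM in h3 and 52.0 to 57.8 CPM in h4 (log2 0.31, SE 0.05, edgeR adjusted p = 0.015). For *Il33* the h3 libraries were again those below the C57BL/6J, h1 and h2 libraries (47.2 to 62.2 CPM). *Tnfrsf19*, the receptor TROY, was at 61.4 to 62.9 CPM in h3 and 71.3 to 77.6 CPM in h4 (log2 0.28, SE 0.04, edgeR adjusted p = 0.0095), with h4 above the C57BL/6J, h1 and h2 brains.

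The interleukin 1 system was examined further because the h4 line arose on an *Il1r1* mutant. *Il1r1* itself was at 5.84 to 6.57 CPM in h3 and 5.09 to 6.24 CPM in h4 (log2 -0.08, SE 0.09, edgeR adjusted p = 0.89). A count over the whole gene does not check an allele that removes or interrupts only part of it. Of 18 tested genes of the interleukin 1 pathway outside the receptor cluster only *Irak2* passed, against 0.131% of all tested genes, and the median log2 fold change was -0.02 against 0.00 over all genes. The groups did not overlap in 2 of the 18, against 4.27% of all tested genes. Of 11 tested response genes of interleukin 1 and NF-kB only *Vcam1* passed, against the same 0.131%, the groups did not overlap in 2, against 4.27%, and the median was -0.01. *Cxcl10*, a chemokine of low level here, had a log2 fold change of -1.08 (SE 0.35, edgeR adjusted p = 0.51).

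None of the 18 interferon response genes passed the edgeR test, with 6 under an unadjusted p of 0.05, against 7.0% of all tested genes. Of the 18, 17 had an estimate below 0 and the median was -0.27, while 49.6% of all tested genes had an estimate below 0. The smallest p in the list belonged to *Oasl2*, an interferon-induced oligoadenylate synthetase-like gene, at 4.94 to 6.98 CPM in h3 and 3.97 to 4.12 CPM in h4 (log2 -0.58, SE 0.12, edgeR adjusted p = 0.15). With age as a covariate and without h3 replicate 1 edgeR did call *Oasl2* (edgeR adjusted p = 0.040 and 0.031). *Ifit3*, an interferon-induced antiviral protein, had -0.31 (SE 0.11, edgeR adjusted p = 0.60). The groups did not overlap in 3 of the 18, against 4.27% of all tested genes. DESeq2 called 1 of the 18, *Oasl2*. Interferon response genes are known to rise and fall together, so the 17 signs are not 17 independent observations.

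Transport and metabolism accounted for further calls. *Slc7a11*, the cystine and glutamate exchanger and a target of ATF4, was at 76.8, 66.9, 59.2 and 68.2 CPM in h3 and at 87.8, 103, 104 and 102 CPM in h4 (log2 0.55, SE 0.07, edgeR adjusted p = 0.0068). *Slc1a3*, the glutamate transporter GLAST of astrocytes, was at 536 to 572 CPM in h3 and 641 to 671 CPM in h4 (log2 0.23, SE 0.04, edgeR adjusted p = 0.032). With sex as a covariate the *Slc1a3* call was lost (edgeR adjusted p = 0.076). *Emp2*, a tetraspan membrane protein, was at 19.8 to 23.8 CPM in h3 and 27.1 to 29.3 CPM in h4 (log2 0.37, SE 0.06, edgeR adjusted p = 0.045), a call also lost with sex as a covariate (edgeR adjusted p = 0.078).

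*Dio2*, the deiodinase with which astrocytes turn thyroxine into active thyroid hormone, was at 71.2, 75.4, 69.7 and 76.0 CPM in h3 and at 55.3, 56.8, 51.8 and 56.9 CPM in h4. It fell by 0.40 on the log2 scale (SE 0.05, edgeR adjusted p = 0.0021). Both groups lay below C57BL/6J (94.6 to 122 CPM) and h1 (87.7 to 93.3 CPM), and h3 lay with h2 (62.1 to 77.7 CPM). None of the other 13 tested genes of the thyroid hormone list passed in edgeR or DESeq2, with 1 under an unadjusted p of 0.05, among them *Nrgn* (log2 0.24, SE 0.10, edgeR adjusted p = 0.65) and *Hr* (log2 -0.08, SE 0.05, edgeR adjusted p = 0.78). *Heph*, the copper ferroxidase hephaestin that helps iron leave cells, was at 9.50, 9.84, 10.9 and 11.4 CPM in h3 and at 7.11, 4.77, 5.40 and 5.48 CPM in h4 (log2 -0.88, SE 0.12, edgeR adjusted p = 0.0068).

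*Ide*, the insulin-degrading enzyme, was at 115, 113, 115 and 116 CPM in h3 and at 91.3, 87.3, 87.4 and 82.6 CPM in h4. It fell by 0.39 on the log2 scale (SE 0.04, edgeR adjusted p = 0.00071). Both groups were far above C57BL/6J (58.9 to 64.6 CPM), h1 (59.0 to 61.3 CPM) and h2 (56.4 to 58.3 CPM): the h3 mean was 1.88 times and the h4 mean 1.43 times that of C57BL/6J. *Ide* (GRCm38 chr19:37268743-37334544) starts 18.3 Mb from *Rorb*, and its neighbours *Fgfbp3* and *Btaf1* are known to share with it a segment of chromosome 19 that is duplicated in some C57BL/6J mice. *Fgfbp3*, a secreted carrier of fibroblast growth factors, was at 4.79 to 6.17 CPM in h3 and 3.95 to 5.03 CPM in h4, with means 1.88 and 1.55 times that of C57BL/6J (log2 of h4 over h3 -0.28, SE 0.11, edgeR adjusted p = 0.66). *Btaf1*, an ATPase that moves the TATA-binding protein, was at 65.2 to 73.1 CPM in h3 and 56.6 to 63.4 CPM in h4, with means 1.31 and 1.14 times that of C57BL/6J (log2 -0.20, SE 0.05, edgeR adjusted p = 0.25). Gene copy number was not measured in these files.

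*Pisd* encodes the mitochondrial phosphatidylserine decarboxylase, and *Pisd-ps1* and *Pisd-ps2* are transcribed near copies of it, so the division of reads among the 3 is uncertain. *Pisd-ps1* was at 16.3, 17.0, 18.4 and 12.4 CPM in h3 and at 30.8, 69.0, 51.1 and 62.3 CPM in h4 (log2 1.74, SE 0.20, edgeR adjusted p = 0.0024). *Pisd-ps2* rose by 1.29 (SE 0.14, edgeR adjusted p = 0.0018) and *Pisd* by 0.31 (SE 0.05, edgeR adjusted p = 0.045) on the log2 scale. Summed over the 3, the level was 64.9, 64.6, 66.6 and 58.6 CPM in h3 and 88.4, 142, 115 and 132 CPM in h4, so the groups did not overlap in the sum either. Replicate 1 of h4 was again the lowest, and the *Pisd* call was lost with sex as a covariate (edgeR adjusted p = 0.11).

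**Figure D3:**
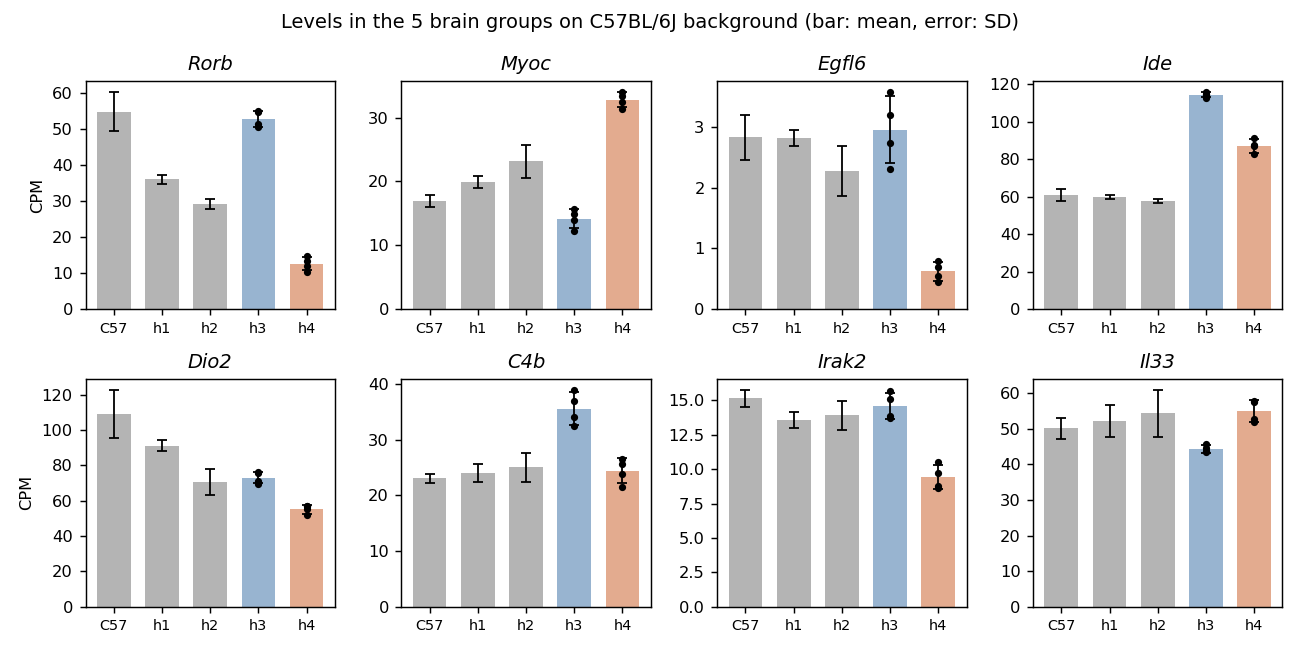
CPM (y axis, from 0) of 8 genes in the 5 brain groups on the C57BL/6J background: C57BL/6J (C57, n = 3), h1 (n = 3), h2 (n = 4), h3 (n = 4) and h4 (n = 4), bars for means, error bars for SD and points for single h3 and h4 libraries. The h4 group stands apart for *Rorb*, *Egfl6*, *Dio2* and *Irak2*, h3 for *C4b* and *Il33*, and both for *Myoc* and *Ide*.

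Set against the other 10 brain libraries on the C57BL/6J background, the h4 libraries of 15 called genes all lay outside the range of C57BL/6J, h1 and h2 on the same side, as did those of 0.8% of all tested genes. The h3 libraries did so for 4 called genes, *Myoc*, *Ide*, *C4b* and *Il33*, against 0.44% of all tested genes. The C57BL/6J mean lay nearer to h3 than to h4 for 19 of the 23 genes and nearer to h4 for *Ide*, *C4b*, *Il33* and *Slc1a3*. Among all tested genes it lay nearer to h3 for 55.2%. These 10 libraries share no sample with the comparison, but the called genes were chosen for a gap between h3 and h4, which makes an extreme value in either group more likely.

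The h4 and h3 spinal cord libraries gave 220 of 17249 tested genes past an adjusted p of 0.05 (1.28%). By replicate number their sex and age labels match those of the brain libraries. They are therefore taken to come from the same mice, which the sources used here do not state. All 23 brain genes were tested in the cord, and 18 of them passed there in the same direction, which is 18 of the 23 brain calls and 18 of the 220 cord calls. *Rorb* was at 34.5 to 42.5 CPM in h3 and 7.07 to 10.1 CPM in h4 cord (log2 -2.19, SE 0.10, edgeR adjusted p = 7.5e-08). *Egfl6* fell by 1.41 on the log2 scale (SE 0.09, edgeR adjusted p = 6.7e-06), *Pisd-ps2* rose by 1.07 (SE 0.11, edgeR adjusted p = 0.00037) and *Myoc* rose by 0.77 (SE 0.09, edgeR adjusted p = 0.00075). *C4b*, *Ide*, *Dio2* and *Irak2* were also lower in h4 cord, with log2 fold changes of -0.48, -0.30, -0.56 and -0.51.

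*Thbs4*, *Slc7a11*, *Vcam1*, *Slc1a3* and *Gpld1* did not pass in the cord. *Thbs4* was at 0.296 to 0.533 CPM in h3 and 0.259 to 0.447 CPM in h4 cord, a much lower level than in brain (log2 -0.15, SE 0.32, edgeR adjusted p = 0.91). *Slc7a11* had a log2 fold change of 0.41 in the cord (SE 0.10, edgeR adjusted p = 0.072). The difference between tissues was not tested, and both tissues are taken to come from the same animals, so the cord is not treated as a second set of mice.

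**Figure D4:**
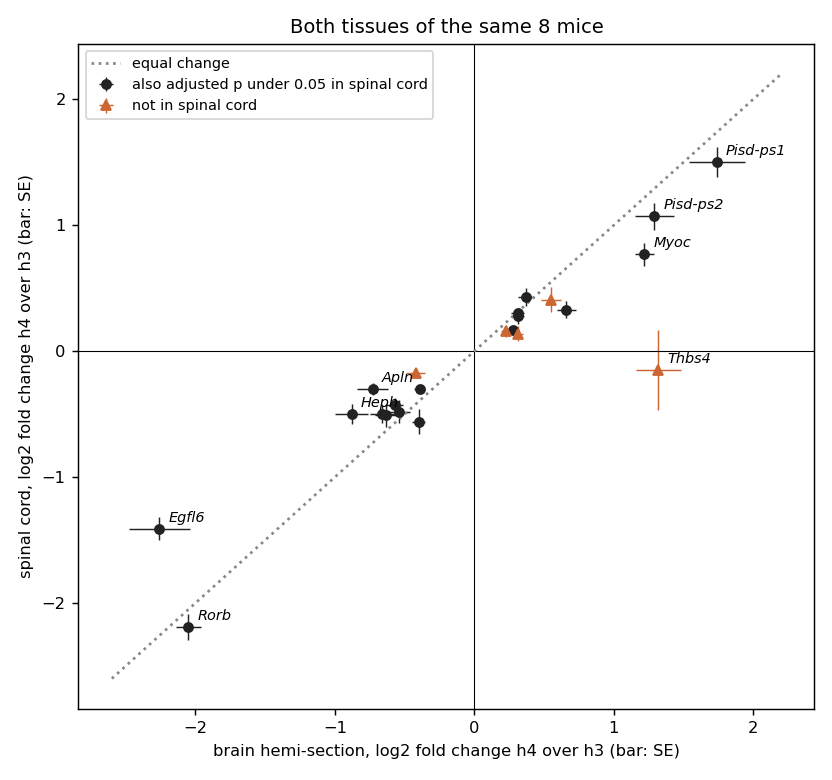
Log2 fold change of h4 over h3 in brain (x axis) and spinal cord (y axis) for the 23 genes called in brain, bars for the SE and the dotted line for equal change. The 18 circles passed an adjusted p of 0.05 in the cord too, and *Thbs4*, the triangle at 1.32 in brain, lies near 0 in the cord.

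By position, *Rorb* (GRCm38 chr19:18930609-19111196), *Il33* and *Ide* were the 3 genes called of 348 tested within 20 Mb of *Rorb*, against 0.131% of all tested genes, and *Rorb* alone was called of 101 within 10 Mb. DESeq2 called 5 of the 348, these 3 with *Gldc* and *Papss2*, against 0.422% of all genes with an adjusted p in DESeq2. Both counts include *Rorb*, the centre of the window and the gene by which the alleles were chosen, so its call was fixed in advance. *Il33* lies between *Rorb* and *Ide*. Around *Tyr* on chromosome 7, 1 of 117 genes within 10 Mb was called, against 0.131% of all tested genes. This was *Mfge8* (GRCm38 chr7:79133768-79149060), 8.3 Mb away. An unadjusted p under 0.05 was found for 7.7% of the 117 and 10.8% of the 37 genes within 5 Mb, against 7.0% of all genes. *Tyr*, the enzyme of melanin synthesis, was at 0.064 CPM or below in all 8 libraries and was not tested. Around *Il1r1* on chromosome 1, 0 of 184 genes within 20 Mb were called by edgeR, and 8.7% had an unadjusted p under 0.05 against 7.0% of all genes. DESeq2 called 1 of them, *Col5a2*, a fibrillar collagen chain, which was at 6.04 to 7.54 CPM in h3 and 8.32 to 8.95 CPM in h4 (log2 0.38, edgeR adjusted p = 0.18). The calls lay on 14 chromosomes, with 3 of 568 tested genes on X (*Egfl6*, *Heph* and *Apln*) and 3 of 517 on chromosome 19 (again *Rorb*, *Ide* and *Il33*), against 0.131% of all tested genes.

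Cortical layer markers were examined because *Rorb* marks layer 4. None of 10 tested layer 4 genes other than *Rorb* passed in edgeR, and their median log2 fold change was -0.14, against 0.06 for layer 2/3, -0.02 for layer 5 and 0.06 for layer 6. The layer 4 median was -0.09 without h3 replicate 3 and -0.08 without h4 replicate 2 or 3. *Whrn*, a scaffold protein, was at 36.8 to 42.9 CPM in h3 and 31.7 to 34.7 CPM in h4 (log2 -0.27, SE 0.06, edgeR adjusted p = 0.17). *Rspo1*, a secreted activator of Wnt signalling, had -0.48 (SE 0.13, edgeR adjusted p = 0.35) and *Scnn1a*, a sodium channel subunit, -0.53 (SE 0.19, edgeR adjusted p = 0.62). *Hsd11b1*, which regenerates active glucocorticoid, went the other way (0.25, SE 0.07, edgeR adjusted p = 0.37). The h3 and h4 libraries did not overlap in 3 of the 10 layer 4 genes (against 4.27% of all tested genes), 5 had an unadjusted p under 0.05 (against 7.0%), and DESeq2 called *Whrn*.

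Of 32 tested chaperones and folding factors of the endoplasmic reticulum 0 were called by edgeR, 1 had an unadjusted p under 0.05, and the median log2 fold change was 0.01. The smallest p was that of *Pdia4*, a disulfide isomerase, with 0.12 (SE 0.05, edgeR adjusted p = 0.71). Of 23 tested genes of the PERK and ATF4 branch of the stress response *Slc7a11* alone passed, against 0.131% of all tested genes. In this list 5 genes had an unadjusted p under 0.05 (3 higher and 2 lower in h4, against 7.0% of all tested genes) and 4 did not overlap between the groups (against 4.27%). *Phgdh*, the first enzyme of serine synthesis, had 0.19 (SE 0.05, edgeR adjusted p = 0.35) and *Nupr1*, a stress-induced regulator, -0.41 (SE 0.12, edgeR adjusted p = 0.43). Heat-shock genes (0 of 17 called by edgeR, 1 with an unadjusted p under 0.05) had a median of -0.04, and cholesterol synthesis genes (0 of 19, 2 with an unadjusted p under 0.05) one of -0.06.

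DESeq2 called 0 genes of the folding, heat-shock and cholesterol lists.

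Circadian clock genes were not called: 0 of 6 morning-phase and 0 of 12 evening-phase genes passed in edgeR, and 1 and 0 had an unadjusted p under 0.05, against 7.0% of all tested genes. *Cry1*, a repressor of the clock, had a log2 fold change of -0.22 (SE 0.09, edgeR adjusted p = 0.69). Of 20 immediate early genes 0 passed, with 1 under an unadjusted p of 0.05: *Jun* was at 36.1 to 51.4 CPM in h3 and 34.1 to 37.0 CPM in h4 (log2 -0.30, SE 0.09, edgeR adjusted p = 0.38, or 0.040 without h3 replicate 1). Of 19 glucocorticoid response genes 0 passed, with 3 under an unadjusted p of 0.05 against the same 7.0%, among them *Tsc22d3* (log2 -0.24, SE 0.08, edgeR adjusted p = 0.54). DESeq2 called 0 members of these 4 lists.

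**Figure D5:**
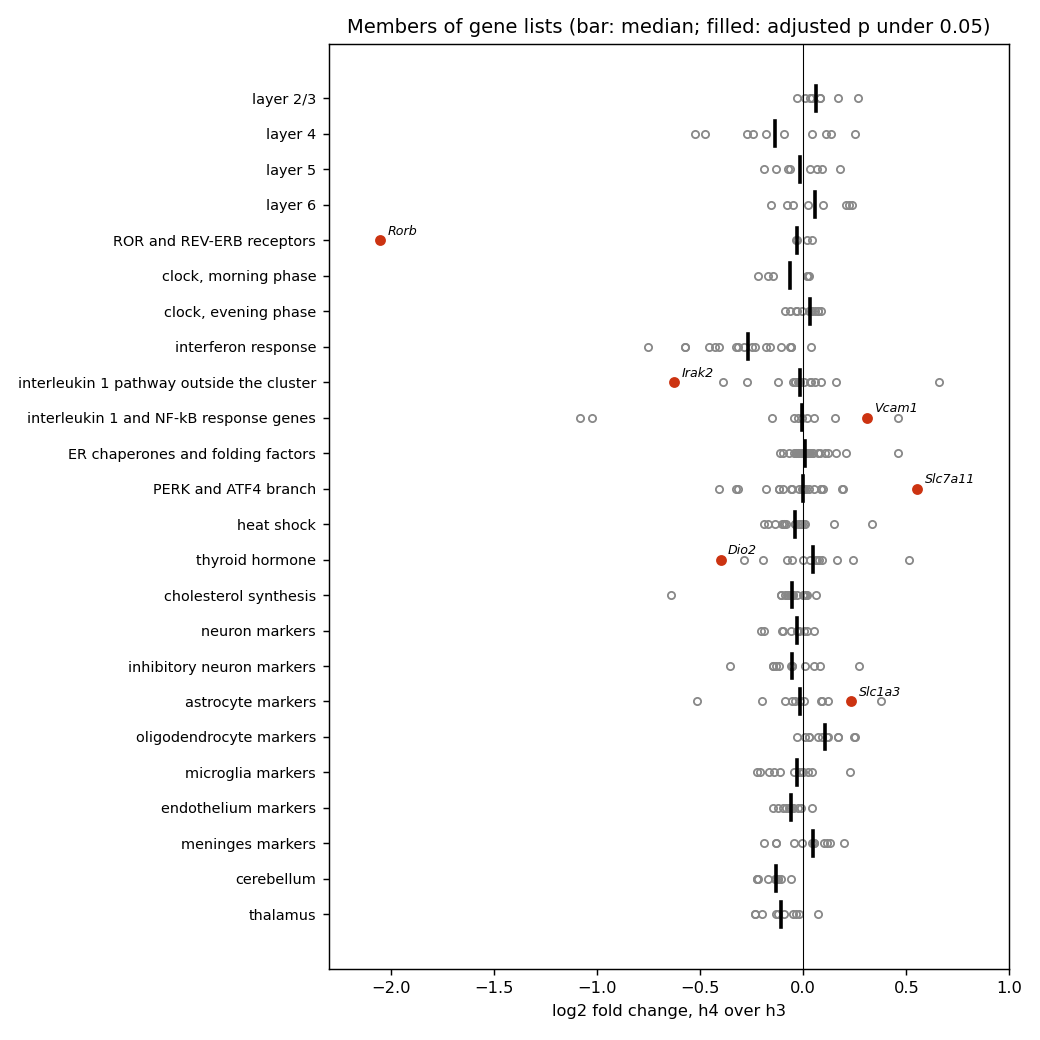
Log2 fold change of h4 over h3 (x axis) for the tested members of 24 gene lists, with the list's median as a bar and members past an adjusted p of 0.05 filled and named. The interferon list has a median of -0.27 without a called member, and brainstem and hypothalamus lists, which are not drawn, had lower medians (-0.36 and -0.34).

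*Myoc*, *Slc1a3*, *Dio2* and *Slc7a11* are known from astrocytes, so the astrocyte markers stand beside them. Of 13 tested markers *Slc1a3* passed, against 0.131% of all tested genes, 6 had an estimate above 0 and 7 below, and the median was -0.01. Summed, they were at 6049 to 6313 CPM in h3 and 5882 to 6290 CPM in h4. *Etnppl*, an astrocyte enzyme of phosphoethanolamine breakdown, had -0.52 (SE 0.13, edgeR adjusted p = 0.28) and *Fabp7*, a lipid carrier of immature astrocytes and radial glia, 0.38 (SE 0.13, edgeR adjusted p = 0.54, or 0.035 with age as a covariate). Oligodendrocyte markers had estimates above 0 in 11 of 12 genes with a median of 0.10, and 0 passed in edgeR with 2 under an unadjusted p of 0.05, against 7.0% of all tested genes. That median was 0.01 without h3 replicate 1 and 0.17 without h3 replicate 4. *Opalin*, a myelin membrane protein, was at 17.1 to 22.2 CPM in h3 and 22.6 to 26.0 CPM in h4 (log2 0.25, SE 0.08, edgeR adjusted p = 0.52).

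Microglia, endothelium and meninges markers had medians of -0.03, -0.06 and 0.05, and 0 of 12 members passed in edgeR in each, with 1, 0 and 2 under an unadjusted p of 0.05. DESeq2 called *Igf2* of the meninges list and no microglia, endothelium, oligodendrocyte or cerebellum marker. Summed meninges markers were at 653 to 709 CPM in h3 and 611 to 674 CPM in h4, and summed choroid plexus markers at 260 to 497 and 371 to 434 CPM. Cerebellum markers were estimated lower in h4 in 10 of 10 genes with a median of -0.13 and 0 calls by edgeR, also at an unadjusted p of 0.05, and their sums overlapped (855 to 1200.0 CPM in h3, 702 to 1248 CPM in h4). The brainstem, hypothalamus, olfactory bulb and thalamus lists had medians of -0.36, -0.34, -0.17 and -0.11, with estimates below 0 in 8 of 10, 7 of 8, 7 of 10 and 9 of 10 tested genes. None of their genes was called by edgeR or DESeq2, and 0, 2, 0 and 1 had an unadjusted p under 0.05. Over the alternative fits these medians ran from -1.03 to 0.22, -0.56 to -0.15, -0.26 to -0.05 and -0.13 to -0.07, and the cerebellum median from -0.29 to -0.04. The brainstem, hypothalamus and cerebellum medians were lowest without h4 replicate 1, and that of brainstem was above 0 with age as a covariate (0.22) and without h3 replicate 4 (0.02). The lowest olfactory bulb median came without h3 replicate 1 and the highest without h3 replicate 3, and the thalamus median was highest without h4 replicate 1. The part of these cell and region levels in the called genes was not tested.

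The DNA upstream of the called genes was read for the RORβ core hexamer, since *Rorb* itself fell. RefSeq promoters were at hand for 17 of the 23 called genes (not for *C4b*, *Heph*, *Lgi4*, *Vcam1*, *Pisd-ps1* and *Pisd-ps2*), and the 250 bases before each start were searched for AGGTCA on both strands. It was found in 2 of the 17, *Ide* and *Irak2*, and in 15.8% of the promoters of 27025 genes. The longer TAGGTCA was found in 0 of the 17 and in 2.5% of all. The sequences of the 2 genes with a match follow, with those of *Myoc* and *Egfl6*, whose changes were among the largest and which do not hold the hexamer in the window. All are GRCm38.p6, 5′ to 3′ on the strand of the gene, and capitals mark the hexamer or its reverse complement TGACCT.
*Ide* (GRCm38.p6 chr19:37334545-37334794, strand -): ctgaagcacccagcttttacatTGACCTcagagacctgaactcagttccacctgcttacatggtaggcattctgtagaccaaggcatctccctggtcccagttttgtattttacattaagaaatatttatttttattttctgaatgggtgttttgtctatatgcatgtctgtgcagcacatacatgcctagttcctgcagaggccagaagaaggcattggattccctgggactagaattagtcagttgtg
*Irak2* (GRCm38.p6 chr6:113638217-113638466, strand +): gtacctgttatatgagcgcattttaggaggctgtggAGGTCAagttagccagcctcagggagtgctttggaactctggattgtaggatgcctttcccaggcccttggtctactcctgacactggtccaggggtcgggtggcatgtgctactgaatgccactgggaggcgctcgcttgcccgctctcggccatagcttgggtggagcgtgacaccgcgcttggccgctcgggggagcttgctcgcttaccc
*Myoc* (GRCm38.p6 chr1:162638900-162639149, strand +): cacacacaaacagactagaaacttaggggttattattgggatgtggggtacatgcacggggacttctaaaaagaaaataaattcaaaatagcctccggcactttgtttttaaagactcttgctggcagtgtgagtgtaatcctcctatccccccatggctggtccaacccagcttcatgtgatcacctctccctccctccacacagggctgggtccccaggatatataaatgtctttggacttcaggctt
*Egfl6* (GRCm38.p6 chrX:166585717-166585966, strand -): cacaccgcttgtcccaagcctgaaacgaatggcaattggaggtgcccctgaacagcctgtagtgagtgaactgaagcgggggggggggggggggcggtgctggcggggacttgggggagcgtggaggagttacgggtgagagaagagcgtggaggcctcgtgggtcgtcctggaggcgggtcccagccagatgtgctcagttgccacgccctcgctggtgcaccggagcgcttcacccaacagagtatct
A match is a string of letters and not a measured binding site, and a window without it says nothing of binding elsewhere.

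Fits that left out 1 library at a time kept 14 of the 23 calls each time: *Rorb*, *Myoc*, *Ide*, *Egfl6*, *Mfge8*, *Lgi4*, *Pisd-ps2*, *Dio2*, *Pisd-ps1*, *Thbs4*, *Irak2*, *Slc7a11*, *Heph* and *Chi3l1*. *Tnfrsf19* was lost without h3 replicate 3, and *C4b*, *Apln*, *Vcam1*, *Il33*, *Slc1a3*, *Gpld1*, *Emp2* and *Pisd* were lost in 3 to 8 of the 8 fits.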

How the data were processed

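Poly(A) RNA of sagittally cut brains was sequenced in pairs by the authors, who trimmed reads with Trim Galore, aligned them with STAR to GRCm38 and estimated gene levels with RSEM. The deposited expected counts are these estimates, which divide reads that fit several genes and need not be whole. The deposited TPM values were scaled for length and depth by RSEM and served once, for *Rorb*. The annotation version and the use of strand in counting are not given in the sources used here.

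Here expected counts of 45706 identifiers were rounded to integers. The quasi-likelihood test of edgeR 4.0.16 in R 4.3.3, after filterByExpr with a minimum count of 10 and TMM scaling, was used at a Benjamini-Hochberg adjusted p of 0.05, h4 against h3 brain without covariates. The authors used DESeq2, run here as an alternative (1.42.0). CPM levels were scaled by TMM over 18 brain libraries, and spinal cord was fitted separately. Symbols came from a later GENCODE release by identifier (41407) and GRCm38.p6 positions from RefSeq (31371). Alternatives were the size factors of DESeq2, no low-count filter, a term for sex, age or replicate number, a fit of all 5 brain groups and leaving out each library. On simulated counts of this comparison (17527 genes, 200 changed) edgeR recovered 82% of genes at a log2 fold change of 1 and 65.5% at 0.5, with 5.7% and 5.8% of its calls false, against 13.1% and 20.3% for DESeq2. Genes named are *Rorb*, *Il1r1*, *Tyr*, all called genes, and per list those with the smallest p, of which 2 are not reported here. The genes, members and lists were chosen with earlier results of these data known. *C4a*, *Fgfbp3* and *Btaf1* were added as copies or neighbours. Replicates were not identical in any pair.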

Additional observations from a re-analysis of the deposited data

Results flagged for a closer look

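In the h4 group *Thbs4* stood at 6.96 CPM in replicate 1 and at 11.7 to 12.7 CPM in the other 3 libraries, a gap large enough against the range of 4 values to pass Dixon's test. *Slc7a11* stood at 87.8 CPM in the same library and at 102 to 104 CPM in the others. These were 2 of 48 groups of 4 checked, and chance flags about 1 in 20. Replicate 1 of h4 was the h4 library nearest to the h3 mean for 12 of the 23 called genes, and replicate 1 of h3 was the h3 library nearest to the h4 mean for 12. Without h4 replicate 1, edgeR called 24 genes, 22 of them among the 23.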

How the results depend on the processing

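The size factors of DESeq2 gave the same 23 calls in edgeR, and in TPM the h4 mean of *Rorb* was 26.9% of the h3 mean. Under 15 alternatives for each of the 23 genes no direction reversed, and 277 of 345 values stayed past the threshold. DESeq2 itself called 83 genes (36 higher, 47 lower in h4), edgeR without a low-count filter 38 (17 higher, 21 lower), with age as a covariate 36 (20 higher, 16 lower), with sex as a covariate 21, and in a fit of all 5 brain groups 34 (20 lower). The cause of these moves was not tested. Leaving out 1 library gave 15 to 27 calls, 6 to 11 higher and 8 to 16 lower. The lowest total and the lowest count of higher genes came without h3 replicate 3, and without h4 replicate 2 there were 7 higher. Same-numbered libraries of h3 and h4 deviated together with correlations of -0.233, -0.071, -0.182 and 0.125 and share only a number. With the replicate block 5 genes were called (1 higher, 4 lower): *Rorb*, *Myoc*, *Ide*, *Egfl6* and *Dio2*. Of 630 list medians 16 moved by more than the spread between replicates, among them that of the interferon list without h4 replicate 1 (-0.31) and without h4 replicate 2 (-0.20). With 4 libraries a group, 65.5% of genes simulated with a log2 fold change of 0.5 were recovered, so smaller changes can be missed.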

Other observations

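Genes that narrowly missed the threshold in edgeR, chosen after their values were seen, included *Tnpo2*, a nuclear import receptor, at 80.1 to 105 CPM in h3 and 121 to 126 CPM in h4 (log2 0.43, edgeR adjusted p = 0.056). *S100a10*, an annexin partner, was at 11.7 to 14.0 CPM in h3 and 9.03 to 10.7 CPM in h4 (log2 -0.43, edgeR adjusted p = 0.075). *Chrdl1*, a secreted antagonist of bone morphogenetic proteins made by astrocytes, was at 12.1 to 14.4 CPM in h3 and 7.39 to 10.9 CPM in h4 (log2 -0.60, edgeR adjusted p = 0.082). *Tubb2b*, a tubulin of developing neurons and glia, was at 97.7 to 109 CPM in h3 and 114 to 128 CPM in h4 (log2 0.24, edgeR adjusted p = 0.094). All 4 passed in DESeq2.

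Among genes of low level, *S100a8*, a calcium-binding protein of neutrophils, was at 0.428 to 1.66 CPM in h3 and 0.092 to 0.255 CPM in h4 (log2 -2.40, edgeR adjusted p = 0.17). It was called by DESeq2 (adjusted p = 0.0043) and by edgeR with age as a covariate (adjusted p = 0.027) or without a low-count filter (adjusted p = 0.040). Its partner *S100a9* overlapped (0.232 to 1.91 CPM in h3, 0.087 to 0.743 CPM in h4). *Clec7a*, a glucan receptor of myeloid cells, was at 0.584 to 1.01 CPM in h3 and 0.170 to 0.429 CPM in h4 (log2 -1.51, edgeR adjusted p = 0.17, DESeq2 adjusted p = 0.024).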
